A study of Mus musculus with 4 samples.

Results

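The interleukin 1 system was followed through subcutaneous LLC tumors with 10 genes, taken by symbol from a fixed list and found in the tables of all 4 libraries, out of 18605 genes that every table holds. They are the agonists Il1a and Il1b, the receptor antagonist Il1rn, the signaling receptor Il1r1 with its accessory chain Il1rap, the decoy receptor Il1r2, Il18 with its soluble decoy Il18bp, Il1f9, and Nlrp3. The rule names genes and uses no measured value, though the list was drawn up with earlier results of these data known.

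Interleukin 1 alpha and interleukin 1 beta bind the receptor Il1r1, which recruits Il1rap and signals through Myd88 and NF-kB. The product of Il1rn occupies the same receptor without signaling, and Il1r2 binds the agonists but lacks a signaling domain, so the response of a tissue depends on agonists, antagonist and decoys together. Nlrp3 is the sensor of an inflammasome that activates caspase-1, the protease that matures interleukin 1 beta and interleukin 18. Il18bp binds and neutralizes interleukin 18, and Il1f9 encodes interleukin 36 gamma, a relative that uses a receptor of its own. In tumors interleukin 1 alpha and beta are made mainly by myeloid cells.

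LLC (Lewis lung carcinoma) is a mouse lung cancer line, grown here under the skin of female C57/BL6N mice 6 to 8 weeks old. The radiotherapy group (RT) had 3 libraries, RT1, RT2 and RT3, each of 1 tumor given 3 fractions of 8 Gy, and the control group (NT) had 1 library, in which 3 mock treated tumors were pooled. Tumors were taken 72 h after radiation and read with a 3′ single-cell kit that counts RNA molecules by unique molecular identifiers (UMIs). The labels name no genotype beyond the strain, and the tumor cells of both groups come from the same transplanted line.

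NT held 69667759 UMIs in 10141 barcodes. RT1 had 78585759 UMIs (15346 barcodes), RT2 had 108699844 (14994) and RT3 had 85660188 (15324). After filtering, 9976, 15029, 14993 and 15060 cells were kept, with medians of 5709, 3864, 5200 and 4158 UMIs per cell. Each pair of libraries shared 182 to 277 barcode sequences, at most 1.85% of a library. The table of RT2 stood apart: it listed genes by symbol alone, and its most mitochondrial barcode had 11.95% of UMIs from mitochondrial genes, against 91.5% or more elsewhere. Results are therefore also given without each RT library where that changes them.

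With 1 NT library there is no replicate of the control, and no test, p-value or standard error was computed between NT and RT. Levels are CPM, the UMIs of a gene summed over the cells of 1 type in 1 library and scaled to the same total for every type and library, and since the kit gives 1 tag per molecule they need no scaling by gene length. RT is given as mean ± SD (n = 3), and intervals cover counting error only. Below, a gene rose or fell only if all 3 log2 ratios of RT over NT were 1 or more, or all -1 or less, and the 95% Poisson interval of NT was apart from each RT interval. This is called the rule of size. A weaker description is that every RT library lay on 1 side of NT, read on ratios with 0.5 UMI added to each count. Since a single NT library enters all 3 ratios, they are not independent of each other, and treatment cannot be told apart from pooling 3 tumors or from the library itself.

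Cells were grouped without the 10 genes and the pathway genes named here. The clusters gave 7 compared cell types, and each carried its own markers. In macrophages the 10 macrophage markers, led by C1qb, summed to 9412 CPM in NT and 15746, 16873 and 13824 CPM in RT. Of them 8 were above NT in every RT library and 0 below. In monocytes the 8 monocyte markers, led by Thbs1, summed to 10121, 12128, 10086 and 16539 CPM, with 6 above and 0 below. Neutrophils differed most. Their 8 markers, led by S100a8, summed to 4435 CPM in NT against 25608, 33482 and 23306 CPM in RT, so the 23 NT cells of that cluster carry the label weakly and every neutrophil ratio rests on 68774 UMIs.

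Myeloid cells took a larger share of the RT libraries. Macrophages were 5.70% of NT cells (exact 95% Clopper-Pearson limits 5.26 and 6.18) and 14.3%, 13.96% and 8.31% of RT cells, a mean of 12.2% ± 3.36. Monocytes were 5.74% in NT and 13.1%, 14.3% and 13.0% in RT, and neutrophils 0.231% and 1.22%, 1.69% and 0.823%. NT lay below every RT library for all 3 types, whereas tumor cells were 52.4% of NT and 34.2%, 29.8% and 41.2% of RT. These shares weigh on every value taken over all cells.

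Il1b was by far the most abundant of the 10 genes, and it was a myeloid transcript. Averaged over the 4 libraries it was 6267 ± 776 CPM in neutrophils, 5677 ± 3799 in monocytes, 4128 ± 1478 in dendritic cells and 1107 ± 764 in macrophages (SD, n = 4), and 4.16 ± 0.99 CPM in tumor cells. Neutrophils, monocytes and dendritic cells overlapped in their ranges, while dendritic cells were above macrophages in all 4 libraries without overlap. Il1rn did not follow that order. It stood at 557 ± 83.4 CPM in monocytes, 541 ± 258 in neutrophils and 511 ± 79.7 in macrophages, ranges that overlapped, and at 204 ± 77.6 CPM in dendritic cells. Il1a, the agonist that needs no inflammasome to act, was 115 ± 77.2 CPM in neutrophils, 109 ± 33.8 in monocytes and 82.3 ± 5.81 in macrophages, again overlapping.

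The receptors were spread over other cells. Among the 7 compared types Il1r1 was highest in tumor cells at 56.2 ± 5.84 CPM and in endothelial cells at 46.4 ± 22.5 CPM, which overlapped, and lowest in macrophages at 4.35 ± 2.39 CPM. An unnamed cluster led by Col1a1 was above both, with 158 CPM in NT, from 16 UMIs, and 162, 114 and 222 CPM in RT. The decoy Il1r2 had another order, with 1245 ± 594 CPM in neutrophils, 487 ± 212 in dendritic cells, 164 ± 80.0 in monocytes, 11.6 ± 5.35 in macrophages and 1.70 ± 0.69 CPM in tumor cells. Il1rap was highest in neutrophils at 63.6 ± 40.4 CPM, and tumor cells followed at 16.8 ± 3.71 CPM without overlap. Neutrophils, with most decoy, had 28.2 ± 6.41 CPM of Il1r1, so their decoy transcript exceeded that of the signaling receptor, and in tumor cells the order was reversed.

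Il18 was 49.5 ± 13.8 CPM in monocytes and 36.2 ± 6.28 CPM in macrophages, with overlapping ranges. Its decoy Il18bp was led by macrophages at 114 ± 31.1 CPM and endothelial cells at 77.8 ± 14.05 CPM, also overlapping. Nlrp3 was 1244 ± 353 CPM in neutrophils, 879 ± 204 in monocytes and 462 ± 112 in macrophages, and monocytes were above macrophages in all 4 libraries without overlap. Il1f9 was almost a neutrophil transcript, at 449 ± 266 CPM there and 5.69 ± 11.4 CPM in lymphocytes, the next type. In lymphocytes its 18 UMIs all came from RT1.

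**Figure D1:**
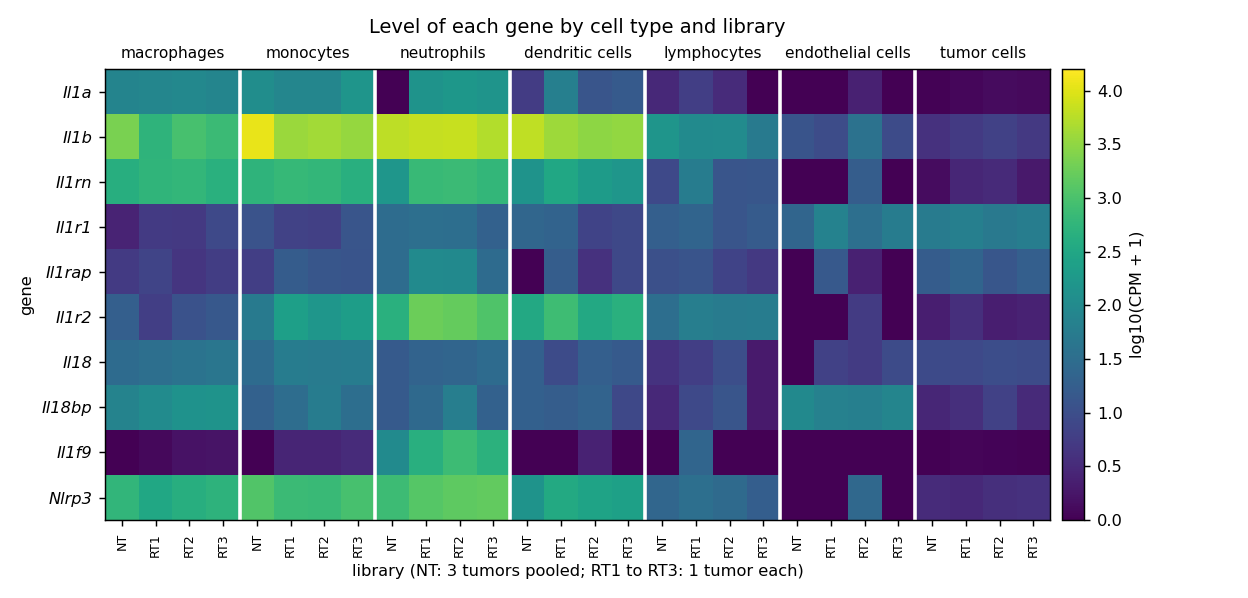
Level of the 10 genes (rows) in 7 cell types and 4 libraries (columns), drawn as log10 of CPM plus 1. Il1b is brightest in neutrophils, monocytes and dendritic cells, Il1r1 in tumor and endothelial cells, and Il1f9 stands out in neutrophils, from 102 CPM in NT to 749.9 CPM in RT2.

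The start sites of Il1b, Il1rn and Il18bp are shown because the first is the agonist that fell in macrophages and monocytes and the others encode the soluble inhibitors. The stretches come from RefSeq on GRCm38.p6, an older build than the one the reads were mapped to, and capitals mark the searched letters. Il1b lies at chr2:129371140-129371259 on the minus strand, the 120 bases before its start, with TATAAA (the TATA box) in capitals. For Il1rn the third of 3 listed starts is shown at chr2:24345311-24345340 on the plus strand, with a match to an NF-kB pattern (GGG, 3 bases of any kind, TTCC), and for Il18bp chr7:102018263-102018292 on the minus strand, with a match to TTGCNNAA (C/EBP).
Il1b: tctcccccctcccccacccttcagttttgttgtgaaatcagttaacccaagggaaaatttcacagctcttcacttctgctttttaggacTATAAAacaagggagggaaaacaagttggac
Il1rn: gaaatatgaGGGTTTTTCCgcttctgacag
Il18bp: tggagccagtgTTGCGGAAgtgccttcctg
The 3 matches begin 31, 51 and 49 bases before the start. Both strands of the 250 bases before each start were searched, and 12.4% of 32851 promoters held the TATA letters, 4.65% the NF-kB letters and 9.56% the C/EBP letters. Among 14 entries for the 10 genes, 3 held TATAAA (Il1a, Il1b and Il18) and 2 each held the NF-kB letters (Il1rn and Il1r1), the C/EBP letters (Il1r1 and Il18bp), the AP-1 letters TGANTCA (Il1a and Il1rn, 6.75% of promoters) and the ETS letters GAGGAAG (Il1a and Nlrp3, 10.6%). None held the interferon element (GAAA, 2 bases of any kind, GAAA, in 2.98% of promoters). A match describes the letters and is neither a binding site nor a cause, and no match says nothing of the factor.

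Over all cells of a library, where fewer cells of a type and less RNA per cell cannot be told apart, the main agonist and the inhibitors differed. Il1b was 293.6 CPM in NT and 293.0, 420.0 and 205 CPM in RT, a mean log2 ratio of -0.00 ± 0.52, with NT inside the range of RT. Il1rn was 24.8 CPM in NT (23.7 to 26.0) and 104, 118 and 46.1 CPM in RT, a mean log2 ratio of 1.73 ± 0.74. Every RT library was above NT in Il1rn, but RT3 at a log2 ratio of 0.89 kept it from passing the rule of size, which it passes without RT3.

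Among the 9 of the 10 genes that reached a mean of 10 CPM over all cells, 3 rose by the rule and 0 fell, where 2.27% of 8106 genes tested rose and 0.123% fell. The 3 were under 10 CPM in NT and reached that mean only through the RT libraries, so their number is a description and nothing is read from it. In the values that follow RT is given in the order RT1, RT2, RT3, as everywhere. Il1r2 was 4.49 CPM in NT and 24.8, 22.2 and 16.0 CPM in RT (mean log2 ratio 2.20 ± 0.33). Il18bp was 5.53 CPM in NT and 17.5, 27.2 and 11.9 CPM in RT (1.69 ± 0.60). Il1a was 4.84 CPM in NT and 15.02, 17.2 and 10.8 CPM in RT (1.54 ± 0.34). The calls of both decoys and the less abundant agonist stand under the limit on low NT levels given above.

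Nlrp3 was 42.9 CPM in NT and 84.0, 108 and 73.5 CPM in RT (1.03 ± 0.28), and Il18 was 9.83 CPM and 14.3, 17.1 and 12.7 CPM (0.57 ± 0.22). Every RT library lay above NT in both, as it did in 6 of the 9 genes, and 0 of the 9 had every RT library below NT, against 27.8% and 39.7% of all genes tested. Of the 6, Il1a, Il1r2, Il18bp and Il18 were under 10 CPM in NT and reached that mean only through the RT libraries. Nothing is therefore read from these counts. Il1r1 was 57.8 CPM in NT and 65.2, 50.7 and 59.8 CPM in RT, and Il1rap 14.5 CPM in NT and 18.4, 10.5 and 15.1 CPM in RT. For both receptor chains NT was inside the range of RT. Il1f9 was too low to enter the comparison, with 0.10 CPM in NT and 2.39, 3.69 and 1.38 CPM in RT.

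Within macrophages, Il1b fell. Its level was 2227 CPM in NT (2168 to 2287) and 543, 941 and 717 CPM in RT, a mean log2 ratio of -1.64 ± 0.40, and the NT level was 3.04 times the mean RT level. The highest RT library lay below NT by more than the distance between the lowest and the highest RT library. It was the only one of 7 tested members past the rule of size in macrophages, where 1.77% of 7045 genes tested fell and 2.27% rose.

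Il1rn in the same cells was 428 CPM in NT (403 to 455) and 557, 599 and 462 CPM in RT (0.32 ± 0.19). Every RT library was above NT, by less than the rule asks, and all 3 mean ratios without 1 RT library stayed between 0.24 and 0.43. Il1a was 76.3 CPM in NT and 83.2, 89.9 and 79.7 CPM in RT (0.14 ± 0.09), close to level. Of the agonists, only Il1b fell in macrophages.

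Il18bp in macrophages was 74.3 CPM in NT and 105, 137 and 141 CPM in RT (0.77 ± 0.23). Il18 was 28.9 CPM and 33.6, 39.1 and 43.2 CPM (0.40 ± 0.18). Nlrp3 was 574 CPM and 320, 430.3 and 524 CPM (-0.46 ± 0.36). Every RT library was above NT in the first pair and below it in Nlrp3, and over the 7 tested members 4 were above and 3 below in every RT library, against 33.9% and 33.0% of all genes tested. Il1r2 was 17.7 CPM in NT and 5.01, 10.3 and 13.4 CPM in RT (-1.01 ± 0.73), from only 43 UMIs in NT. Of these, 27 came from a sub-cluster led by Crip1, with Cd52, the mast cell protease Cma1, Ftl1 and ribosomal protein genes among its leading genes. Leading genes were taken over all libraries. Cma1 was 0 CPM in NT macrophages and 0.23, 0.31 and 46.4 CPM in RT, so it does not describe the NT cells. Il1r1, Il1rap and Il1f9 were under the limit of 10 CPM, and Il1r1 gave 4 UMIs in NT and 36, 53 and 33 in RT.

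Monocytes showed the same fall from a higher level. Il1b was 11359 CPM in NT (11152 to 11569) and 3698, 4169.6 and 3479 CPM in RT, a mean log2 ratio of -1.59 ± 0.13 and an NT level 3.00 times the mean of RT. The RT libraries lay close together and far below NT. Of 8 tested members 1 fell and 1 rose, where 0.689% of 6970 genes tested fell and 2.40% rose.

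The member that rose in monocytes was the decoy Il1r2, with 53.6 CPM in NT (40.3 to 70.0) and 232, 159 and 213 CPM in RT (1.88 ± 0.28). Neutrophils hold the most Il1r2, and in monocytes all 8 neutrophil markers, led by Mmp8, were above NT in every RT library, summing to 75.5 CPM in NT and 184, 297 and 317 CPM in RT, with none at 0 in all 4 libraries. The monocyte marker Chil3 was 175 CPM in NT and 703, 753 and 2388 CPM in RT. The part of these differences in the rise of Il1r2 was not tested. Il1rn was 534 CPM in NT and 642, 599.9 and 450.3 CPM in RT (0.06 ± 0.27), with NT inside the range of RT. Il1a was 115 CPM in NT and 82.2, 84.9 and 155 CPM in RT (-0.17 ± 0.51), also inside. Agonist and antagonist thus did not move together here, and the decoy receptor moved against Il1b.

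Il18 in monocytes was 28.8 CPM in NT and 58.0, 54.8 and 56.3 CPM in RT (0.95 ± 0.04). Il18bp was 18.9 CPM and 30.7, 56.5 and 32.1 CPM (0.98 ± 0.49), and Il1rap was 4.97 CPM and 15.8, 12.2 and 11.3 CPM (1.26 ± 0.25). All 3 were above NT in every RT library without passing the rule: Il18 and Il18bp had a ratio under 1 in at least 1 library, and for Il1rap, with 5 UMIs in NT, the counting intervals overlapped. Nlrp3 was 1135 CPM in NT and 732, 697 and 952 CPM in RT (-0.53 ± 0.24), below NT in every RT library. Over the 8 members, 4 were above and 2 below NT in every RT library, against 40.2% and 24.4% of genes tested. Il1rap, 1 of the 4, reached 10 CPM only through the RT libraries, so its side is not read.

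**Figure D2:**
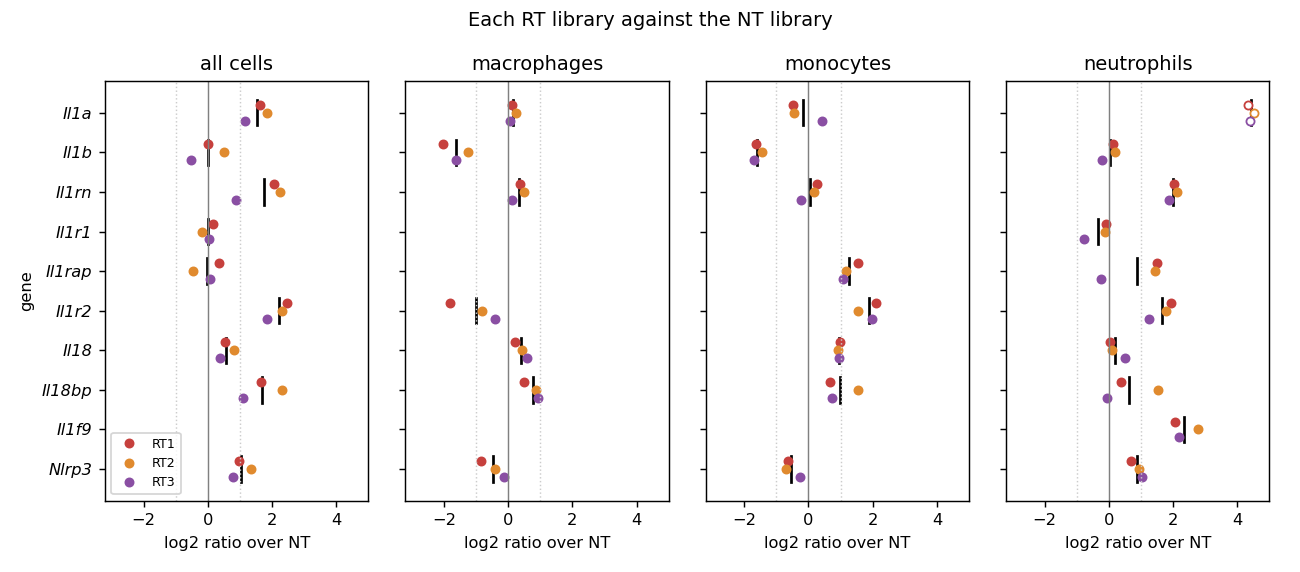
Log2 ratio of each RT library over NT (horizontal axis) for each tested gene in all cells, macrophages, monocytes and neutrophils. Points are single libraries, black bars their mean, dotted lines mark a ratio of 1 in either direction, and hollow points mark Il1a in neutrophils, where NT had 0 UMIs and the drawn value depends on the 0.5 UMI added. Il1b sits left of -1 in all 3 libraries in macrophages and monocytes and on both sides of 0 over all cells.

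The share of cells with a UMI of Il1b gave the same picture when each cell was thinned to 2000 UMIs, shallower cells left out. Of macrophages 53.9% in NT (49.2 to 58.5) and 25.9%, 41.4% and 28.8% in RT had Il1b (58.7% and 30.2%, 49.7% and 34.5% unthinned). For monocytes the shares were 92.3% in NT and 71.8%, 81.0% and 65.7% in RT (90.8% and 73.6%, 80.9% and 64.7% unthinned). Thinning left out 105 NT macrophages and 494, 140 and 353 in RT, and 418 NT monocytes and 1364, 813 and 1566 in RT. Tumor cells, which should lack the gene, had 0.651%, 0.991%, 1.19% and 0.908% after the same thinning, with median depths of 8003, 6315, 9579.5 and 6563 UMIs against 3514, 3224.5, 5207 and 2805 in macrophages, so the myeloid shares were far above that background.

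The antagonist was steadier. For Il1rn the thinned shares of macrophages were 44.0% in NT and 48.8%, 49.2% and 41.0% in RT, and of monocytes 47.7% and 48.0%, 46.6% and 39.5%. NT was inside the range of RT in both. Il1r2 was seen in 7.74% of NT monocytes (4.06 to 13.1) and in 19.6%, 19.5% and 19.5% of RT monocytes, with tumor cells at 0.10% to 0.69%. In macrophages the thinned share for Il1r2 was 0.65% in NT and 0.85%, 1.33% and 1.67% in RT, with NT lowest here and highest in CPM, so no direction is read for Il1r2 in macrophages.

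Within single cells the agonist and the antagonist were not exclusive. Of NT macrophages with Il1b at 2000 UMIs, 44.4% also had Il1rn, against 43.5% of those without Il1b. In RT the shares were 56.1%, 54.0% and 48.6% with Il1b and 46.2%, 45.9% and 38.0% without. Il1r2 in RT monocytes was more frequent beside Il1b, at 24.1%, 20.9% and 22.5% against 8.19%, 13.9% and 13.6% of cells without Il1b, while in NT it was 7.69% with and 8.33% without. Since 143 of the 155 thinned NT monocytes had Il1b, the NT share without it rests on few cells and is not compared with RT. Cells of 1 library are not replicates, and these shares are descriptions.

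Set against each other, antagonist gained on agonist in each of the myeloid types. Il1rn made up 15.7% of the summed Il1a, Il1b and Il1rn UMIs in NT macrophages (14.8 to 16.6) and 47.1%, 36.7% and 36.7% in RT, a mean of 40.2% ± 5.99. There were 5.38 agonist UMIs per Il1rn UMI in NT macrophages and 1.12, 1.72 and 1.72 in RT. In monocytes the share was 4.45% in NT (4.09 to 4.83) and 14.5%, 12.4% and 11.0% in RT (12.6% ± 1.76). All intervals of RT lay above those of NT in both cell types.

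The share was 2.55% in NT neutrophils (1.28 to 4.51) and 9.00%, 9.10% and 10.1% in RT, and 2.18% in NT dendritic cells (1.48 to 3.10) and 7.51%, 6.14% and 4.51% in RT. Over all cells it was 7.69% in NT and 25.2%, 21.3% and 17.6% in RT (21.4% ± 3.79), or 12.0 agonist UMIs per Il1rn UMI in NT and 2.97, 3.70 and 4.67 in RT. In tumor cells, where the 3 genes were near background, it was 11.6% in NT and 28.8%, 27.5% and 17.7% in RT. The level of Il1b is part of each of these shares, and in macrophages and monocytes its fall was larger than any change of Il1rn.

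**Figure D3:**
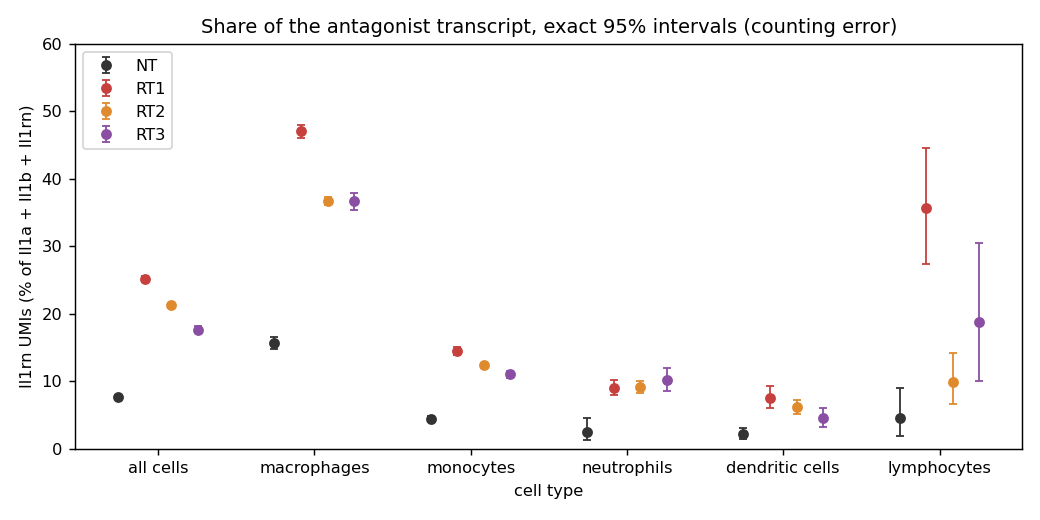
Il1rn as a percent of the summed UMIs of Il1a, Il1b and Il1rn by cell type and library, with exact 95% Clopper-Pearson intervals for counting error. NT is the lowest library over all cells and in each of the 5 types drawn, as in macrophages with 15.7% in NT and 36.7% or more in RT.

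The remaining pairs were then compared. Il1a was 3.31% of agonist UMIs in NT macrophages and 13.3%, 8.72% and 10% in RT. Il1r2 was 83.1% of the UMIs of the 2 receptors Il1r1 and Il1r2 in NT monocytes (71.7 to 91.2) and 97.6%, 96.8% and 94.8% in RT. In macrophages it was 91.5% in NT (79.6 to 97.6), from 47 UMIs of the pair, and 54.4%, 71.7% and 64.1% in RT. Most of the Il1r2 UMIs of NT macrophages came from the Crip1-led sub-cluster described above. No direction is read for Il1r2 there. Over all cells it was 7.20% in NT and 27.6%, 30.5% and 21.2% in RT. Il18bp was 72.0% of the UMIs of Il18 and its decoy in NT macrophages (66.0 to 77.5) and 75.8%, 77.8% and 76.5% in RT, where the intervals of NT and RT overlapped. Over all cells it was 36.0% in NT and 55.0%, 61.4% and 48.4% in RT. In tumor cells Il18bp was 18.7% of the pair in NT and 26.2%, 37.6% and 21.5% in RT, where the intervals of RT1 and RT3 overlapped that of NT. In monocytes NT was inside the range of RT, at 39.6% against 34.6%, 50.8% and 36.3%, and in endothelial cells it was above RT, at 100% of 17 UMIs against 92.6%, 93.6% and 90.9%.

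In neutrophils Il1b did not pass the rule, with 6122 CPM in NT (5551 to 6735) and 6681, 7023 and 5245 CPM in RT (0.03 ± 0.23). Of the 10 members 4 rose and 0 fell, where 1.14% of 7721 genes tested rose and 0.648% fell. Il1a, 1 of the 4, had 0 UMIs in NT and reached 10 CPM only through the RT libraries, so nothing is read from its call. Of the 4 calls, those of Il1a and Il1rn were lost with at least 500 genes per cell and that of Il1r2 with the lists left in the clustering genes. In 6 of the 10, Il1a among them, every RT library was above NT, against 26.0% of genes tested. In 1, Il1r1, every ratio was below 0, against 47.6%, but only through the 0.5 UMI added to its 2 UMIs in NT, since its levels were 29.1 CPM in NT and 32.6, 32.2 and 18.8 CPM in RT. Il1rn was 160 CPM in NT, from 11 UMIs, and 675, 719.7 and 608 CPM in RT (2.00 ± 0.12). Il1f9 was 102 CPM in NT, from 7 UMIs, and 453, 749.9 and 490.1 CPM in RT (2.34 ± 0.39).

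Il1r2 in neutrophils was 465 CPM in NT and 1792, 1608 and 1112 CPM in RT (1.64 ± 0.36). Il1a had 0 UMIs in NT and 145, 165 and 151 CPM in RT, which puts the lowest RT library at least 3.33-fold higher than the NT limit of 3 counts. Nlrp3 was 756 CPM in NT and 1221, 1454 and 1546 CPM in RT (0.88 ± 0.18). Beside these stand the NT cells themselves. The summed neutrophil markers were several-fold lower in NT, as given above, all 8 of them below every RT library, and the macrophage markers summed to 29.1 CPM in NT against 664, 820.3 and 254 CPM in RT. The 8 monocyte markers summed to 2501 CPM in NT and 6568, 4982 and 5018 CPM in RT, 7 of them above NT in every RT library. The 8 tumor markers, at 2381 CPM in NT tumor cells, summed in these neutrophils to 1948 CPM in NT and 1449, 1224 and 1579 CPM in RT. Of them 3 were below and 2 above NT in every RT library. The median ratio of all genes tested was -0.34, and with TMM factors in place of totals 137 genes rose and 9 fell instead of 88 and 50. The part of these differences in the 4 rises was not tested.

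The cells labelled dendritic differed in their own markers. Of the 10 dendritic markers, led by H2-Ab1, 9 were below NT in every RT library, and they summed to 20808 CPM in NT and 17379, 17039 and 15706 CPM in RT. The 8 monocyte markers, led by Plac8 and with Chil3 at 0 in all 4 libraries, summed to 581 CPM in NT and 1552, 1579 and 1406 CPM in RT, 6 of them above NT in every RT library. The part of these differences in the ratios that follow was not tested. In dendritic cells Il1b was 6298 CPM in NT (5966 to 6644) and 3796, 3058 and 3360.0 CPM in RT (-0.89 ± 0.16), below NT in every RT library without reaching the rule. Nlrp3 was 140.5 CPM in NT and 354, 270.1 and 243 CPM in RT (1.01 ± 0.28), and Il1rn 140.5 CPM and 314, 201 and 159 CPM (0.61 ± 0.49). Of 8 tested members 0 passed the rule, where 0.376% of genes tested rose and 0.268% fell, and 3 were above and 3 below NT in every RT library, against 29.2% and 28.2%. Il1a, 1 of the 3 above, was at 4.68 CPM in NT and reached 10 CPM only through the RT libraries. In lymphocytes Il1b was 153 CPM in NT and 99.8, 106 and 53.0 CPM in RT (-0.88 ± 0.55). Markers of other cells differed there too, the 10 macrophage markers, led by C1qb, with 72.2 CPM in NT and 564, 455 and 175 CPM in RT, 7 of them above NT in every RT library, and the 8 neutrophil markers, led by Hdc, with 5.23 CPM and 142, 60.2 and 120 CPM, 6 of them above. None of these was at 0 in all 4 libraries, and their part in the ratio was not tested. In lymphocytes 0 of 5 tested members passed, where 1.04% of genes rose and 0.442% fell, and 2 were above and 1 below NT in every RT library, against 22.3% and 38.4%. Il1rn, 1 of the 2 above, had 7 UMIs in NT and reached 10 CPM only through the RT libraries. Across the 6 types in which Il1b could be compared it was below NT in every RT library in 4 and above in 0.

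Tumor cells carried the receptor side. Il1r1 was 54.2 CPM in NT (52.2 to 56.4) and 63.1, 49.3 and 58.2 CPM in RT (0.06 ± 0.18). Il1rap was 16.0 CPM in NT and 21.2, 12.3 and 17.6 CPM in RT (0.05 ± 0.40). Both had NT inside the range of RT, and 0 of these 2 tested members passed the rule, where 0.828% of genes tested rose and 0.127% fell. Every RT library was above NT in 26.3% of genes tested in tumor cells and below in 35.1%. Tumor cells gave 64.7% of all Il1r1 UMIs in NT and 48.9%, 46.3% and 57.3% in RT. A cluster led by Lum, nearest to tumor cells but left unnamed because a marker of another type was among its leading genes, gave another 18.6% in NT and 30.9%, 32.5% and 20.95% in RT.

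Endothelial cells were few, 34 in NT and 105, 142 and 35 in RT. Il1r1 there rested on 4 UMIs in NT and 26, 23 and 7 in RT, with 22.5 CPM and 72.2, 33.6 and 57.2 CPM. Il18bp was 95.8 CPM in NT and 69.5, 64.3 and 81.7 CPM in RT, below NT in every RT library. Of 3 tested members 0 passed the rule, where 0.336% of genes tested rose and 0.410% fell, and 1 was above and 1 below NT in every RT library, against 28.1% and 28.3%.

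The cell types that gave the transcripts were then compared. Monocytes gave 56.2% of Il1b UMIs in NT and 57.7%, 53.0% and 60.3% in RT, and macrophages 26.5% and 20.5%, 26.9% and 18.2%. Macrophages gave 60.3% of Il1rn in NT and 59.3%, 60.8% and 52.0% in RT. For Il1b and Il1rn the leading source was thus the same in all 4 libraries. For Il1a it was not, with macrophages at 55.2% in NT and 61.2%, 62.7% and 38.2% in RT and monocytes at 34.6% and 25.02%, 26.4% and 50.7%, so that monocytes led in RT3. For the decoys the shares differed more. Monocytes gave 17.4% of Il1r2 in NT and 42.7%, 38.3% and 47.1% in RT, and neutrophils 10.3% and 31.4%, 33.2% and 17.3%, while dendritic cells went from 23.8% to 10.1%, 9.74% and 9.30%. Macrophages gave 47.0% of Il18bp in NT and 66.5%, 60.3% and 61.4% in RT, and tumor cells 22.7% and 7.58%, 9.46% and 10.7%. Il18 was led by tumor cells in NT, at 55.7%, with macrophages at 10.3%. In RT tumor cells gave 26.1%, 24.9% and 36.7% of it and macrophages 25.9%, 27.4% and 17.6%.

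The all-cell ratios were then recomputed with either the make-up or the levels held at NT, an arithmetic that names no cause. Giving the NT levels of each cell type the UMI shares of each RT library yielded a log2 ratio of 1.48 ± 0.39 for Il1b, and giving the RT levels the NT shares yielded -1.43 ± 0.16, against -0.00 ± 0.52 as measured. The 2 recomputed values had opposite signs. For Il1rn the values were 1.42 ± 0.50 by make-up, 0.36 ± 0.25 by level and 1.73 ± 0.74 as measured, and for Il1a 1.45 ± 0.48, 0.13 ± 0.10 and 1.54 ± 0.34. For Il1r2 they were 0.96 ± 0.36, 1.00 ± 0.29 and 2.20 ± 0.33, and for Il18bp 0.98 ± 0.46, 0.74 ± 0.34 and 1.69 ± 0.60. The levels used include those of macrophages, monocytes, neutrophils and dendritic cells, whose own markers differed between NT and RT.

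**Figure D4:**
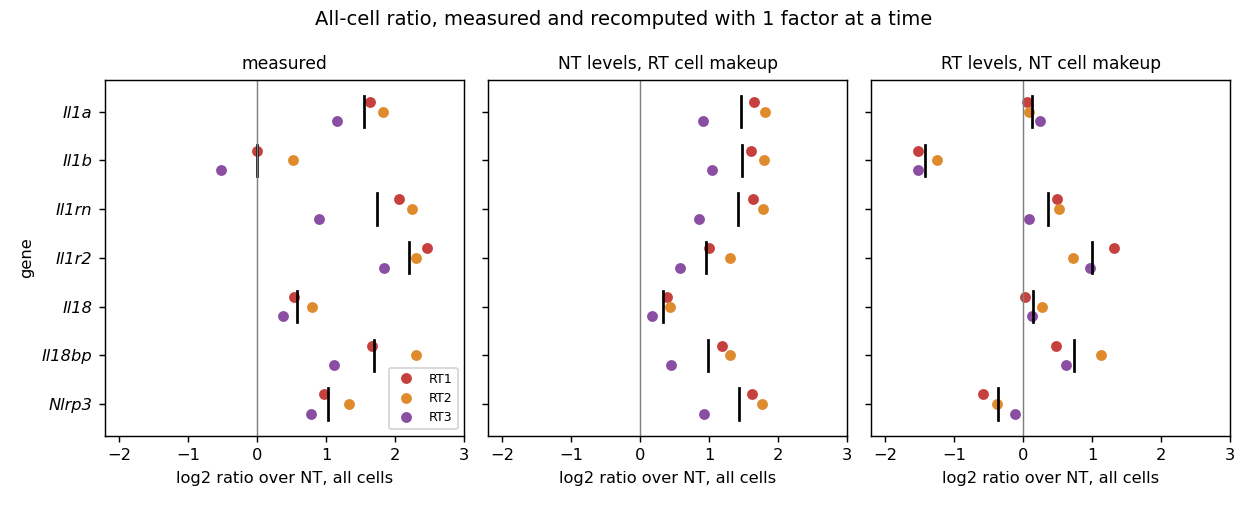
Log2 ratio of RT over NT over all cells as measured, with NT levels and RT make-up, and with RT levels and NT make-up. Points are the 3 RT libraries and bars their mean; Il1b is near 0 as measured, at 1.48 by make-up alone and at -1.43 by levels alone.

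Macrophages, monocytes and dendritic cells were clustered again into 14 sub-clusters to see whether the fall of Il1b belonged to particular states. Il1b was below NT in every RT library in 14 of 14, where 31.5% of the genes tested were, counted once per sub-cluster, and it fell by the rule of size in 10, where 0.614% did. Mean log2 ratios ran from -2.18 to -1.04. These are the cells already described, compared with the same NT library, and each sub-cluster held 17 to 138 NT cells.

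The lowest ratio was in the sub-cluster led by Lyve1, with Cbr2, Fcna and Ccl8, of which 99.3% of cells were macrophages. Il1b there was 1500 CPM in NT and 227, 536 and 298 CPM in RT. The highest level was in the Chil3-led monocytes, with Plac8 and the neutrophil genes S100a8 and Lcn2 among their leading genes, at 18386 CPM in NT and 5952, 6273 and 5854 CPM in RT. In the Cxcl9-led macrophages Il1b was 2650.0 CPM in NT and 756, 1148 and 677 CPM in RT, and in the monocytes led by Ifit1bl1 12076 CPM and 3492, 4609 and 3844 CPM. In each of these 4 the RT libraries lay well below NT. The Ccn1-led sub-cluster carried the tumor genes Rhox5 and Krt8 among its leading genes, and its Il1b of 2164 CPM in NT and 722, 907 and 846 CPM in RT was read from cells that carry them.

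Il1rn rose or fell by the rule in 0 of the 14 sub-clusters. Every RT library was above NT in 7 and below in 2, against 32.5% and 31.5% of genes tested. In the Lyve1-led macrophages it was 441 CPM in NT and 408, 463 and 298 CPM in RT, and in the Chil3-led monocytes 192 CPM and 189, 218 and 175 CPM. The Il1rn share of agonist and antagonist UMIs was above NT in every RT library in all 14, from 1.03% to 22.1% in NT and 2.89% to 59.6% in RT. Il1b, below NT in every RT library in the same 14, is part of that share, so the 2 counts are not separate results. Il1r2 rose in 3 of 10 sub-clusters tested, all of monocytes, where 1.03% of genes tested rose. In the Chil3-led monocytes it was 39.8 CPM in NT, from 6 UMIs, and 440, 333 and 377 CPM in RT, in cells that have S100a8 among their leading genes. Over all monocytes S100a8 was 0 CPM in NT and 28.4, 89.6 and 55.0 CPM in RT. Nlrp3 was below NT in every RT library in 9 of 14.

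**Figure D5:**
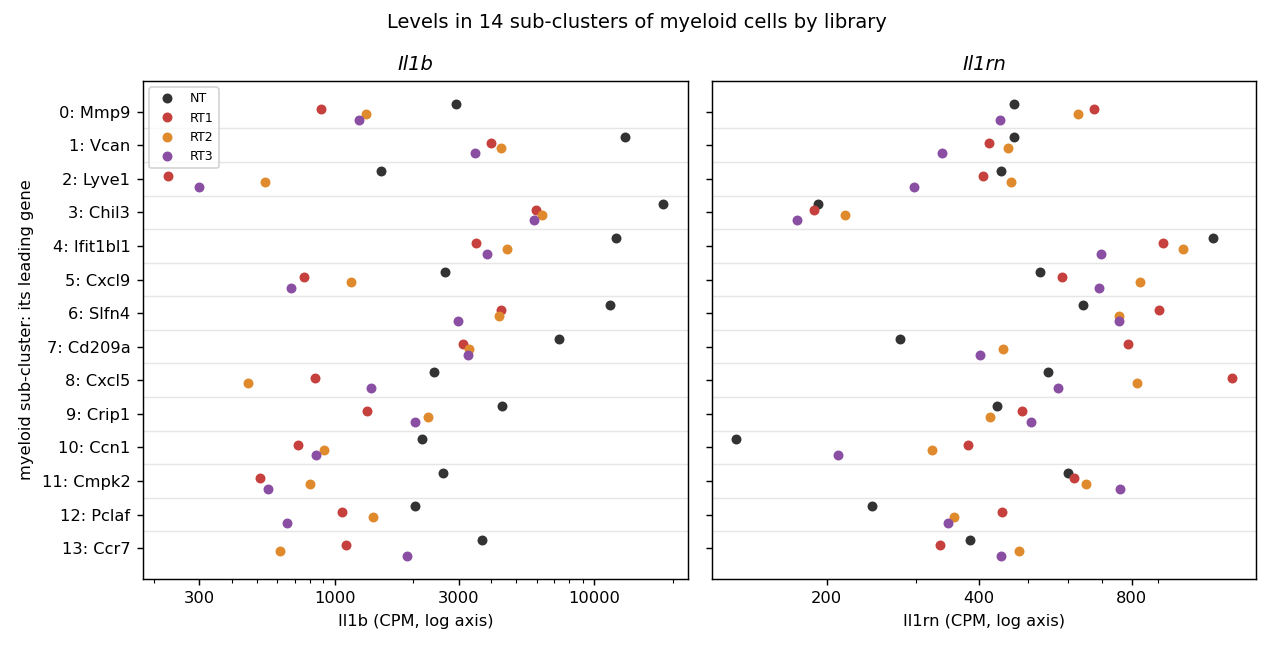
Levels of Il1b (left) and Il1rn (right) in CPM on log axes in 14 myeloid sub-clusters, named by their leading gene, 1 point per library. For Il1b the NT point lies right of all 3 RT points in each sub-cluster; for Il1rn it lies left of them in 7, right in 2 and among them in 5.

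Markers were read beside the fall of Il1b. Of the cells' own markers, 8 of 10 in macrophages and 6 of 8 in monocytes were above NT in every RT library, and 0 were below. Markers of other cells differed too. In macrophages the 10 dendritic markers, led by H2-Ab1, summed to 5084 CPM in NT and 1153, 2126 and 1719 CPM in RT. Of them 5 were below and 2 above NT in every RT library. In monocytes they summed to 6515 CPM and 2061, 2701 and 1611 CPM, with 6 below and 1 above. H2-Ab1 alone was 4602 CPM in NT macrophages and 6133 CPM in NT monocytes, so it made up most of both NT sums. None of these 10 was at 0 in all 4 libraries of either type. Neutrophil markers went the other way, with 26.8 CPM in NT macrophages and 90.3, 142 and 92.8 CPM in RT, led by Csf3r, and 75.5 CPM in NT monocytes and 184, 297 and 317 CPM in RT, led by Mmp8. The part of these differences in the Il1b ratios was not tested. Il1b in tumor cells was 2.99 CPM in NT and 4.2, 5.40 and 4.06 CPM in RT, lowest in NT.

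No gene of the machinery around Nlrp3 passed the rule in macrophages or monocytes. Among all genes tested in macrophages 2.27% rose, 1.77% fell, 33.9% were above and 33.0% below NT in every RT library, and in monocytes 2.40%, 0.689%, 40.2% and 24.4%, shares against which the counts of this and the next 2 lists are read. Of 10 inflammasome genes tested in macrophages 0 passed, 4 were above and 0 below, and the median log2 ratio was 0.12 against 0.00 for all genes. Casp8 was 129 CPM in NT and 159, 142 and 145 CPM in RT. Casp1, the protease, was 112 CPM in NT and 107, 122 and 116 CPM in RT, and Pycard, the adaptor, 109 CPM and 77.9, 144 and 95.9 CPM. Txnip, a thioredoxin inhibitor that binds Nlrp3, was 195 CPM and 448, 397 and 269.5 CPM (0.90 ± 0.38). In monocytes 0 of 9 passed, 5 were above and 2 below, and Casp8 was 106 CPM in NT and 227, 179.5 and 175 CPM in RT while Pycard was 77.5 CPM and 123, 179 and 123 CPM. Txnip, the most abundant of them, was 323 CPM and 492, 478 and 349 CPM, and Casp1 94.4 CPM and 113, 118 and 97.4 CPM. Casp4, a caspase of the noncanonical inflammasome, was 136 CPM in NT and 85.9, 97.3 and 126 CPM in RT, below NT in every RT library.

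Of 13 receptor signaling genes tested in each type, 0 passed in macrophages, with 5 above and 3 below in every RT library, and 0 in monocytes, with 5 above and 2 below. Peli1, a ubiquitin ligase acting on the IRAK kinases, had the widest difference among those named. It was 562 CPM in NT macrophages and 155, 202 and 471 CPM in RT (-1.20 ± 0.84), and 618 CPM in NT monocytes and 211, 238 and 411 CPM in RT (-1.17 ± 0.51), with RT3 nearest to NT in both. The adaptor Myd88 was 77.6 CPM in NT macrophages and 51.4, 64.8 and 69.0 CPM in RT, and Irak1 78.4 CPM and 90.6, 80.6 and 83.0 CPM. Tab2, an adaptor of the kinase Map3k7, was 128 CPM in NT macrophages and 129, 104 and 123 CPM in RT.

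NF-kB members and genes known to answer interleukin 1 were split. In macrophages 2 of 21 tested rose and 0 fell, and 6 were above and 9 below NT in every RT library (median -0.14). Icam1, an adhesion molecule, was 59.4 CPM in NT and 211, 289 and 214 CPM in RT (1.98 ± 0.26). Saa3, an acute phase protein, was 15.3 CPM and 82.4, 714 and 85.3 CPM (3.47 ± 1.78), with RT2 far above the others. The chemokines Cxcl2 (3192 CPM in NT and 3017, 3097 and 2996 CPM in RT) and Cxcl1 (1882 CPM and 1694, 1617 and 1832 CPM) stayed within a narrow range, and Nfkbia, the NF-kB inhibitor, was 1789 CPM and 2384, 2048 and 2668 CPM. Ccl2, a monocyte chemoattractant, was 5166 CPM in NT and 6724, 5296 and 5318 CPM in RT.

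In monocytes 2 of 22 rose and 0 fell, and 4 were above and 12 below NT in every RT library, with a median of -0.43 against 0.09 for all genes. Icam1 was 42.7 CPM in NT and 132, 223 and 108 CPM in RT (1.77 ± 0.54). Lcn2, a siderophore-binding protein, had 1 UMI in NT (0.99 CPM) and 12.1, 35.1 and 24.8 CPM in RT. It reached 10 CPM only through the RT libraries, so nothing is read from its call or its side. Ccl2 was 2412 CPM in NT and 5866, 4243 and 4138 CPM in RT (0.96 ± 0.28). Cxcl2 was 3639 CPM in NT and 3882.5, 3640.3 and 3258 CPM in RT, Nfkbia 2939.6 CPM and 2043, 1677 and 2957 CPM, and Cxcl1 2029 CPM and 1387, 977 and 1918 CPM. Chosen after their values were seen, the NF-kB subunit Rel was 294 CPM in NT and 104, 97.9 and 149 CPM in RT, the inhibitor Tnfaip3 2399 CPM and 1278, 1162 and 1121 CPM, and Ptgs2, the inducible cyclooxygenase, 1070.0 CPM and 605, 497 and 719 CPM. These 3 lay with Il1b below NT in every RT library, and in macrophages all 3 did as well, Rel at 121 CPM in NT and 48.0, 52.6 and 81.0 CPM in RT.

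The list of other ligands and receptors of the family held 14 symbols, some of them old and new names of 1 gene, and Il36g is another name of the member Il1f9. Of these symbols 6 were measured, and 1 reached 10 CPM in monocytes and 0 in macrophages. It was Il18rap, the accessory chain of the interleukin 18 receptor, with 3 UMIs in NT monocytes (2.98 CPM) and 14.9, 11.4 and 14.6 CPM in RT. It met the rule, as did 2.40% of genes tested in monocytes, but reached 10 CPM only through the RT libraries, so nothing is read from the call. In neutrophils, where 1.14% of genes tested rose and 0.648% fell, 1 of 8 inflammasome genes rose and 0 fell (Txnip, 116 CPM in NT and 708, 752 and 683 CPM in RT), 6 were above and 1 below NT in every RT library, against 26.0% and 47.6%, and the median was 1.29 against -0.34 for all genes. Of 20 NF-kB genes 3 rose and 0 fell, Cxcl2, Cxcl3 and Lcn2, with 10 above and 4 below, under the limits given above for the NT cells. Each list's count above NT holds a gene with 0 UMIs in NT, which reached 10 CPM only through the RT libraries.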

How the data were processed

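Per the labels and the study's methods, single cells of 4 LLC tumor libraries were prepared with a SeekOne MM 3′ kit, and the reads were processed with SeekOne Tools. The submitters' processing notes name STAR 2.5.1b, featureCounts, Subread 1.6.4, Cell Ranger and the build GRCm39 (mm39), without saying which library each was used for. The authors deposited whole-number UMI counts per gene and barcode, not normalized, with barcodes already called as cells. RT2 lists 18605 genes by symbol and appears further filtered, and the others list 32285 with Ensembl identifiers. Tables were joined on symbols shared by all, which left out at most 0.00185% of a library's UMIs. All 10 members matched. The tables held 0 columns of other samples.

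Of 55805 barcodes, 55058 had 200 genes or more and no more than 20% of UMIs from mitochondrial genes, and were used. Counts were set to 10000 in each cell and logged. Then the 2000 most variable genes, without the members and pathway lists, were reduced to 30 principal components, integrated over libraries with a rewritten Harmony (theta 2, lambda 1, sigma 0.1) and clustered from 20 neighbors with Leiden at resolution 0.8 (seed 1). Clusters were named from marker lists, and 5 of 17 stayed unnamed (led by Cenpe, Col1a1, Dpt, Lum and Mrc1). Names were rebuilt here, not taken from the study. Doublets were not removed, and an alternative drops the top 8% by doublet score. Cell types with at least 20 cells in every library were compared.

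UMIs were summed per library and cell type. A gene was tested against the rule of size where its mean over 4 libraries was at least 10 CPM. The rule needs a log2 ratio of at least 1 against every RT library, with 0.5 UMI added, and separate 95% intervals. No p-value was computed. On simulated counts the rule called 100% of 4-fold changes in macrophages (88 genes), 97.6% in monocytes (82) and 37.9% in neutrophils (87), and 64.6% of 8-fold changes in neutrophils (82). Apart from these changes, the simulated libraries shared 1 level per gene and had Poisson error alone, with no spread between tumors. Changes under 4-fold were not simulated, so these shares do not give the recovery in the measured libraries. Precision follows depth: cell types held 68774 UMIs (NT neutrophils) to 51683086 (RT2 tumor cells).

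The 10 members, the marker lists and the pathway lists were chosen with earlier results of these data known. From each pathway list the text gives counts and names at most 6 genes, those past the rule first and then the most abundant. Rel, Tnfaip3 and Ptgs2 are named outside it, chosen after their values were seen. A gene among those most like Il1rn is not reported here. Alternatives covered scaling, cell weights, the added UMI, cell filters, doublets, resolution, clustering genes, low values, thinning and each RT library left out. Promoters came from RefSeq on GRCm38.p6, matched by symbol (10 of 10), and share no coordinates with the count tables. Software was Python 3.11.15, numpy 2.4.6, scipy 1.17.1, pandas 2.3.3, scanpy 1.11.5, scikit-learn 1.9.0, leidenalg 0.10.2, matplotlib 3.10.9, R 4.3.3 and edgeR 4.0.16, the last for TMM factors only.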

Additional observations from a re-analysis of the deposited data

Results flagged for a closer look

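The mean ratios of the decoy receptor Il1r2 had opposite signs in different myeloid cells, and in macrophages it did not pass the rule of size. Its mean log2 ratio of RT over NT was 1.88 in monocytes, with all 3 RT libraries above NT, and 1.64 in neutrophils, also with all 3 above. In macrophages it was -1.01, with all 3 below. The difference between cell types was not tested, since each ratio uses the same NT library. The macrophage value rests on 43 UMIs in NT, and the share of macrophages with an Il1r2 UMI had another order, at 0.647% in NT and 0.847%, 1.33% and 1.67% in RT with cells thinned to 2000 UMIs, and at 2.28% and 1.54%, 3.30% and 2.80% unthinned.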

How the results depend on the processing

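Of 52 ratios of a member in a cell type or over all cells, 35 kept their sign under every alternative run, and 46 kept their call by the rule of size. Of the 10 past the rule, 7 kept it under all. The fall of Il1b and its range over all alternatives was -1.84 to -1.44 in macrophages and -1.69 to -1.53 in monocytes. In neutrophils Il1a and Il1rn lost the call with at least 500 genes per cell, and Il1r2 with the lists left in the clustering genes, where its ratios ran from 0.45 to 2.76 over the alternatives. Calls were gained by Il1rn over all cells without RT3, Il18 in monocytes with the lists left in and Nlrp3 in dendritic cells at resolution 0.4. The cause was not tested.

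Without a filter on low values 219 genes fell in macrophages in place of 125, and over all cells 569 rose and 35 fell in place of 184 and 10, more genes being tested. TMM factors gave 137 risen and 9 fallen genes in neutrophils. Leaving out 1 RT library, which asks less of the rule, gave 179 to 241 risen and 148 to 170 fallen genes in macrophages (160 and 125 with all), 188 to 301 and 64 to 95 in monocytes (167 and 48), 94 to 140 and 55 to 101 in neutrophils (88 and 50), and 188 to 432 and 10 to 21 over all cells. The same step moved Il1b over all cells between -0.26 and 0.26, Il1rn there between 1.48 and 2.16, and in monocytes between -0.04 and 0.21. The Il1rn share of RT over NT differed by 21.0 to 26.2 percentage points in macrophages, 7.24 to 8.98 in monocytes and 11.8 to 15.5 over all cells. Ratios of Il1a in neutrophils with nothing added or as a mean over cells could not be given, because NT held 0 UMIs. No paired analysis was possible because NT is 1 library of pooled tumors whose label carries no replicate number. Depth limits neutrophils, endothelial and dendritic cells most.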

Other observations

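Among 8314 genes, those whose levels over 7 cell types and 4 libraries were most like Il1b were Rap1gap2 (Pearson's r of log2 levels 0.974 over 28 points), the Src-family kinase Fgr (0.971), the costimulatory ligand Cd80 (0.969), Snx20 (0.969) and Ptafr, the receptor of platelet-activating factor (0.968). For Il1rn they included Ptafr (0.982), the chemokine receptor Ccr1 (0.973), Alox5ap, which serves leukotriene synthesis (0.973), and Nfam1 (0.968). For Il18bp they were App (0.897), Cebpd (0.892), Bst1 (0.891), Hlx (0.887) and Tcn2 (0.881). The points share libraries and differ mainly by cell type, so these are descriptions without a test.

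The unnamed clusters held members as well. The Mrc1-led cluster was nearest to tumor cells by its markers, while 4 of its leading genes were macrophage markers (Mrc1, Folr2, Adgre1 and Ms4a7). Il1rn there was 4.61% of agonist and antagonist UMIs in NT (3.59 to 5.82) and 26.6%, 21.9% and 15.6% in RT. In the Col1a1-led cluster Il1r2 was 11.1% of the UMIs of Il1r1 and Il1r2 in NT (2 of 18) and 34.3%, 36.3% and 34.2% in RT, with an NT interval of 1.38 to 34.7.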
